A study of Mus musculus with 4 samples.

Results

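The translation initiation factor genes of mouse blood were examined. The group held every gene whose symbol was Eif followed by a digit from 1 to 6 and that had values in the libraries, without the eIF2 kinase genes. The rule used names alone and picked 51 of the 17823 genes with values. Expression was given as FPKM, fragment counts divided by transcript length and by library total, so levels of different genes are per length and can be set side by side. The highest of the 51 genes was Eif1, with a mean of 103 FPKM over the libraries, and the lowest was Eif4e1b, listed at 0 in all 4 libraries. Where a pair of values is given for a group, library 1 comes before library 3. Of the 51 genes, 7 had a mean of 10 FPKM or more and 19 had a mean under 1 FPKM.

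Blood RNA was sequenced from C57BL/6 mice, which the labels call adult and the study calls aging. The Nar group received naringenin (Nar), a flavonoid found in citrus fruit, injected into the caudal vein over 30 days, and the control group (Ctrl) received phosphate-buffered saline for 30 days. The question was which genes differ in blood when aging mice are given Nar. Each group had 2 libraries, numbered 1 and 3. The labels do not say whether libraries came from separate mice, so p-values measure the spread between these libraries only. The mRNA was selected with oligo(dT) and came from blood, in which fewer cells of a type and less RNA per cell cannot be told apart.

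Translation initiation is the step at which a ribosome is placed on the start codon of an mRNA. The small ribosomal subunit binds eIF1, eIF1A, eIF3, eIF5 and a ternary complex of eIF2, GTP and initiator methionyl tRNA. It is brought to the cap by eIF4E, eIF4G and the helicase eIF4A, scans to the start codon and is then joined by the large subunit with the help of eIF5B. In blood the process is best known from reticulocytes, which have no nucleus and keep making globin from stored mRNA, and whose kinase Eif2ak1 (HRI) phosphorylates eIF2 when heme is short.

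The main contrasts below turn on Eif1, Eif5 and Eif1b, so the 250 bases before their RefSeq start (build GRCm38.p6) are shown. Eif1 and Eif1b code for near copies of the same protein, and their promoters lie on chromosomes 11 and 9. Capitals mark CCNCNCCC, a letter pattern bound by erythroid and other Krüppel-like factors, and CCAAT, the box bound by NF-Y, on either strand.
Eif1, chr11:100319699-100319948, plus strand: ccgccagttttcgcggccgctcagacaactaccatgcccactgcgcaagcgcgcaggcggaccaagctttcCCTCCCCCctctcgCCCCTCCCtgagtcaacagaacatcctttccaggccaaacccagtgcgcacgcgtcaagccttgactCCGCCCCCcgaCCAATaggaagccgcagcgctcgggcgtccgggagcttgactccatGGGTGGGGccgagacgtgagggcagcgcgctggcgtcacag
Eif5, chr12:111537851-111538100, plus strand: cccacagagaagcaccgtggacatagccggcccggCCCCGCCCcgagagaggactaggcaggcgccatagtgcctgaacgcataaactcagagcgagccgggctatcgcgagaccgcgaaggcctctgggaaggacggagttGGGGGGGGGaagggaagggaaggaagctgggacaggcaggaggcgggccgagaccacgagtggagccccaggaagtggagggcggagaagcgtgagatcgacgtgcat
Eif1b, chr9:120492356-120492605, plus strand: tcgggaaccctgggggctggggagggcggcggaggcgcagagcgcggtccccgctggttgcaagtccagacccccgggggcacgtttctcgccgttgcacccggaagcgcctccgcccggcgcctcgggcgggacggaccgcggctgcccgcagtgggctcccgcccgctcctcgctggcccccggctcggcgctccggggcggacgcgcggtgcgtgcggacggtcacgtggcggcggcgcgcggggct

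CCNCNCCC matched 4 times in the Eif1 window and 3 times in that of Eif5, where a pair of the matches overlap in a run of G. The Eif1b window held no match to it and had the highest GC content of the 3, at 80.4%, against 66.8% for Eif1 and 66.4% for Eif5. The members' windows numbered 51 and came from 39 of the 51 genes. Eif1a, Eif3j2 and Eif4ebp3, on chromosome 18, were left out of the members' windows by choice. Chromosome 18 was not left out of the windows of all tested genes or of the reference. CCNCNCCC stood in 58.8% of the members' windows, in 64.1% of the windows of all tested genes and in 45.9% of the 32851 windows in the reference. It matched at 24 of the 39 genes. Among them were Eif4a1, Eif4ebp2, Eif4enif1, Eif4h and Eif5b, called lower below as Eif1b was. It did not match at Eif3a and Eif3l, also called lower. CCAAT stood in 23.5% of the members' windows and in 34.2% of those of tested genes. GATAA, the letters bound by GATA factors, stood in 5.88% of them and in 15.3% of those of tested genes. TGACGT, the letters of the cAMP response element, stood in 19.6% of them and in 9.68% of those of tested genes, with matches at Eif2a, Eif2s3y, Eif3a, Eif3d, Eif4a1, Eif4e2, Eif4ebp2 and Eif5a. Both strands were searched for all 4 patterns, and a match is a description of letters and not of binding.

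The libraries were dominated by red cell RNA. Haemoglobin genes took 92.6% to 96.4% of the summed FPKM. The median log2 fold change (Nar against Ctrl) of the 5339 genes tested was -1.07, and it was -0.061 after median-of-ratios scaling, which levels the typical gene between libraries. The differences of the main genes are therefore also given against that shift. Of all tested genes, 39.6% passed the test as lower with Nar. Of the markers of other blood cells, all 11 neutrophil genes did, with summed levels of 1436 to 1737 FPKM in Ctrl and 105 to 164 in Nar. Monocyte genes passed as lower in 4 of 6 cases (346 to 415 FPKM in Ctrl, 96.0 to 139 in Nar). NK genes passed in 1 of 5 cases, a share below that of all tested genes (18.0 to 19.7 FPKM in Ctrl, 4.67 to 9.42 in Nar). None of 6 B cell, 5 T cell, 7 platelet and 15 erythroid genes passed in either direction. In 6 of the 15 erythroid genes both Nar libraries lay above both Ctrl libraries, as in 1.27% of all tested genes. The median log2 fold change of the 15 was 0.38, or 1.48 after median-of-ratios scaling. Under that scaling the B cell median went from -0.41 to 0.65 and the T cell median from -0.47 to 0.50. The platelet median went from -1.04 to 0.069. Limma then called 3 of the 11 neutrophil genes lower and no monocyte or NK gene (0.356% of all tested genes). B cell markers summed to 26.7 to 34.5 FPKM in Ctrl and 26.6 to 27.9 in Nar, T cell markers to 4.55 to 7.24 in Ctrl and 3.08 to 4.46 in Nar, and erythroid genes without haemoglobin, in which Alas2 alone had a mean of 6506, to 8977 to 10924 in Ctrl and 10121 to 10992 in Nar. Platelet markers summed to 650 FPKM in Ctrl 1 and 2028 in Ctrl 3, against 567 in Nar 1 and 422 in Nar 3. No marker with values was at 0 in all libraries. The part of these cell types in the results below was not tested.

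Most initiation factor genes had lower FPKM with Nar, as most tested genes did, and the members were not tested against the other genes. Of the 51 genes, 41 had a mean of at least 0.5 FPKM and were tested on log2(FPKM + 0.1), a scale that understates the change of low genes. Using limma with Benjamini-Hochberg adjustment over all 5339 tested genes, 11 of the 41 (26.8%) had an adjusted p under 0.05 and were lower with Nar, where 39.6% of all tested genes were called lower. The 11 genes had means of 4.02 FPKM (Eif4a1) or less. Of all tested genes, 2036 of the 4659 with a mean under 10 FPKM were called lower, against 59 of 465 at 10 to 50 FPKM. None of the 41 was called higher, where 0.187% of all tested genes were. At an unadjusted p under 0.05 in limma, 20 of the 41 were lower (56.5% of all tested genes) and none was higher (0.318%). In 35 of the 41 (85.4%) both Nar libraries lay below both Ctrl libraries, as for 78.3% of all tested genes, and in 5 the groups overlapped, as for 20.5%. On average 38 of the 41 were lower, against 93.7% of all tested genes. Differences of more than 2-fold toward lower values were seen in 16 of the 41 and in 56.4% of all tested genes, and toward higher values in none of the 41 and in 0.393%.

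The median log2 fold change of the 41 genes was -0.95, which is 0.12 above that of all tested genes. Between single libraries it was -0.89 for Nar 1 against Ctrl 1, -0.91 for Nar 3 against Ctrl 1, -0.89 for Nar 1 against Ctrl 3 and -1.01 for Nar 3 against Ctrl 3. The matching medians of all tested genes were -0.85, -1.07, -1.05 and -1.30, so the 41 genes lay above the other genes in 3 of the 4 pairs and slightly below in the pair numbered 1. After median-of-ratios scaling the direction turned, with a median of 0.12 for the 41 genes. All 11 calls were kept after rescaling to TPM and with a pseudocount of 0.01, and 10 of the 11 with a pseudocount of 1. They were lost under median-of-ratios scaling, without haemoglobin genes, without the filter on low values and when a library was left out. After median-of-ratios scaling none was called in limma, where 0.356% of all tested genes were called lower and 0.112% higher. At an unadjusted p under 0.05, none was then lower (7.77% of all tested genes) and 3 were higher (6.18%). With haemoglobin genes removed none was called in limma, where 4.54% of tested genes were called lower and 0.263% higher. At an unadjusted p under 0.05, 2 were then lower (19% of tested genes) and 1 was higher (2.55%). None of the 41 was called by limma when Ctrl 1, Ctrl 3, Nar 1 or Nar 3 was left out, where 0%, 0%, 4.76% and 3.99% of all tested genes, in that order, were called lower. At an unadjusted p under 0.05, 12, 13, 8 and 5 of the 41 were then lower, against 50%, 39.2%, 38.8% and 26.7% of all tested genes.

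**Figure D1:**
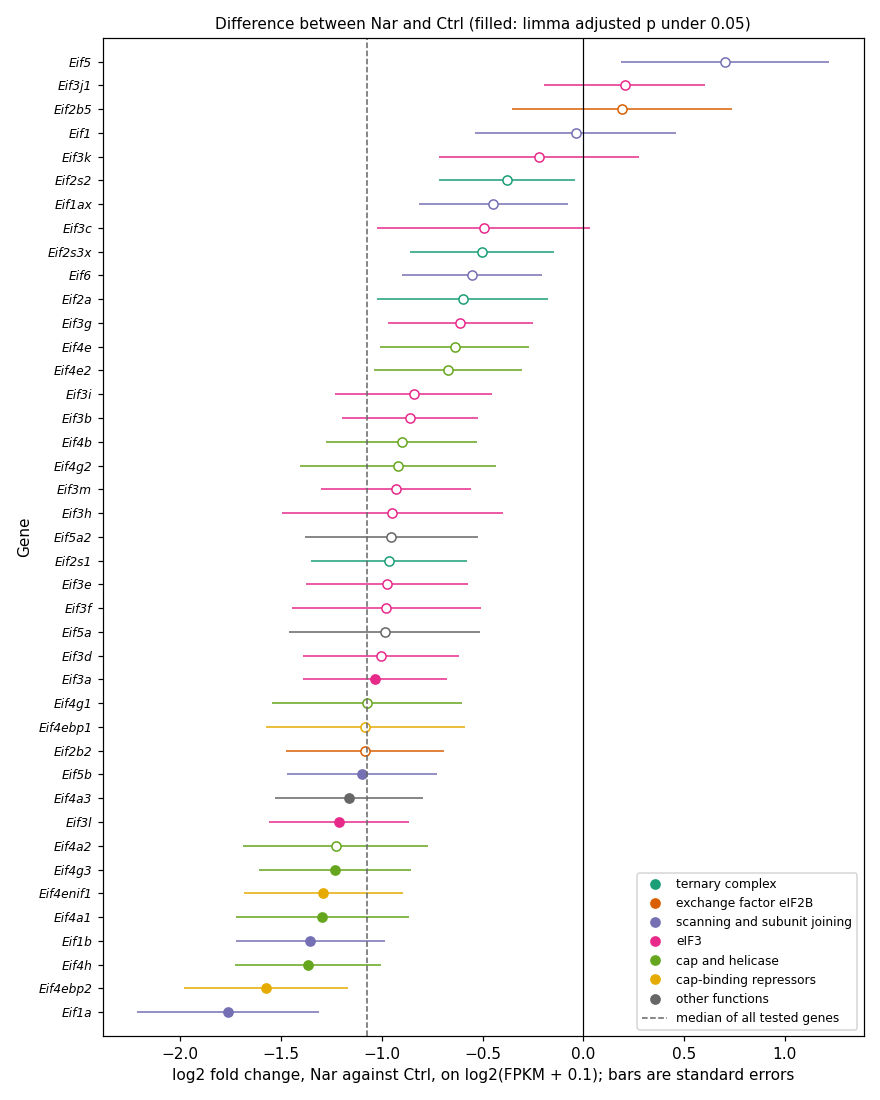
Log2 fold change (Nar against Ctrl, x axis, on log2(FPKM + 0.1)) of the 41 tested genes, sorted and coloured by role, with bars of 1 standard error and a dashed line at the median of all tested genes. The 11 filled points, called lower by limma, lie between -1.76 and -1.04, and Eif5 stands at the upper end with 0.70.

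Scanning and subunit joining factors held the most abundant genes, Eif1 and Eif5. Eif1 codes for the small factor that keeps the scanning subunit open and rejects codons other than AUG. It stood at 83.5 FPKM in Ctrl 1 and 127 in Ctrl 3, against 90.3 in Nar 1 and 111 in Nar 3. The Nar values lay between the Ctrl values, so the groups overlapped, and the log2 fold change was -0.039 with a standard error of 0.50 (limma adjusted p = 0.947). That is 1.03 above the median of all tested genes.

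Eif5, the GTPase-activating protein that triggers GTP hydrolysis by eIF2 at the start codon, was at 41.2 FPKM in Ctrl 1 and 69.4 in Ctrl 3, against 95.7 in Nar 1 and 79.2 in Nar 3. Each Nar library was above each Ctrl library, and among the 41 tested genes this held for Eif5 alone, where 1.27% of all tested genes showed it. Ctrl 1 was the lowest and the Ctrl libraries differed from each other more than the Nar libraries did. The log2 fold change of 0.70 had a standard error of 0.52 and a 95% interval of -0.47 to 1.87, and it did not pass in limma (adjusted p = 0.255). It lay at the 99.0th percentile of all tested genes and 1.77 above their median, and it was 0.33 without Ctrl 1 and 1.08 without Ctrl 3. Scaled by the median of ratios, the difference came to 1.81 on the log2 scale (limma adjusted p = 0.165).

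Eif1b, the near copy of Eif1, had a low level and was lower with Nar. Its values were 2.70 FPKM in Ctrl 1 and 2.39 in Ctrl 3, against 0.76 in Nar 1 and 1.14 in Nar 3. The groups did not overlap, and the log2 fold change was -1.35 with a standard error of 0.37 (limma adjusted p = 0.0266). That lay at -0.28 from the median of all tested genes, within 1 standard error of it, and after scaling by the median of ratios it was -0.31 (limma adjusted p = 0.851). The ratio of Eif1 to Eif1b, which does not depend on how libraries are scaled, was 30.9 and 53.2 in the Ctrl libraries against 119 and 97.8 in the Nar libraries. The groups did not overlap, and the difference of this ratio was not tested.

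Eif1a codes for the factor that works with eIF1 on the scanning subunit. It was at 0.87 FPKM in Ctrl 1 and 0.83 in Ctrl 3, against 0.13 in Nar 1 and 0.24 in Nar 3. It fell 3.40-fold on that scale (log2 fold change -1.76, standard error 0.45, limma adjusted p = 0.0226), which is 0.69 below the median of all genes. Its Nar values are near the pseudocount of 0.1, and with a pseudocount of 1 the log2 fold change was -0.64 (limma adjusted p = 0.0261). Its X-linked near copy Eif1ax was at 1.90 and 1.19 FPKM in Ctrl and 1.02 and 1.14 in Nar, a log2 fold change of -0.45 that did not pass in limma (adjusted p = 0.307) and was -0.13 without Ctrl 1 and -0.76 without Ctrl 3. Alignment could split reads between these near-identical copies, so their separate values are uncertain. The sum of the pair was 2.77 and 2.02 FPKM in Ctrl and 1.15 and 1.38 in Nar, and the ratio of Eif1ax to Eif1a was 2.18 and 1.43 in Ctrl and 7.85 and 4.75 in Nar.

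Eif5b, the GTPase of subunit joining, was at 1.01 and 0.83 FPKM in Ctrl and 0.39 and 0.36 in Nar, and was called lower (log2 fold change -1.10, limma adjusted p = 0.0455). Eif6 keeps the large subunit from joining too early. It was at 0.93 and 0.88 FPKM in Ctrl and 0.60 and 0.57 in Nar, with a log2 fold change of -0.55 that did not pass in limma (adjusted p = 0.191). Eif1ad, an Eif1a relative, had a mean too low to be tested, with 0.33 and 0.60 FPKM in Ctrl and 0.38 and 0.29 in Nar. In all, 3 of the 7 tested genes of this role were called lower (39.6% of all tested genes) and 0 higher, and their median log2 fold change was -0.55, or 0.42 after median-of-ratios scaling.

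**Figure D2:**
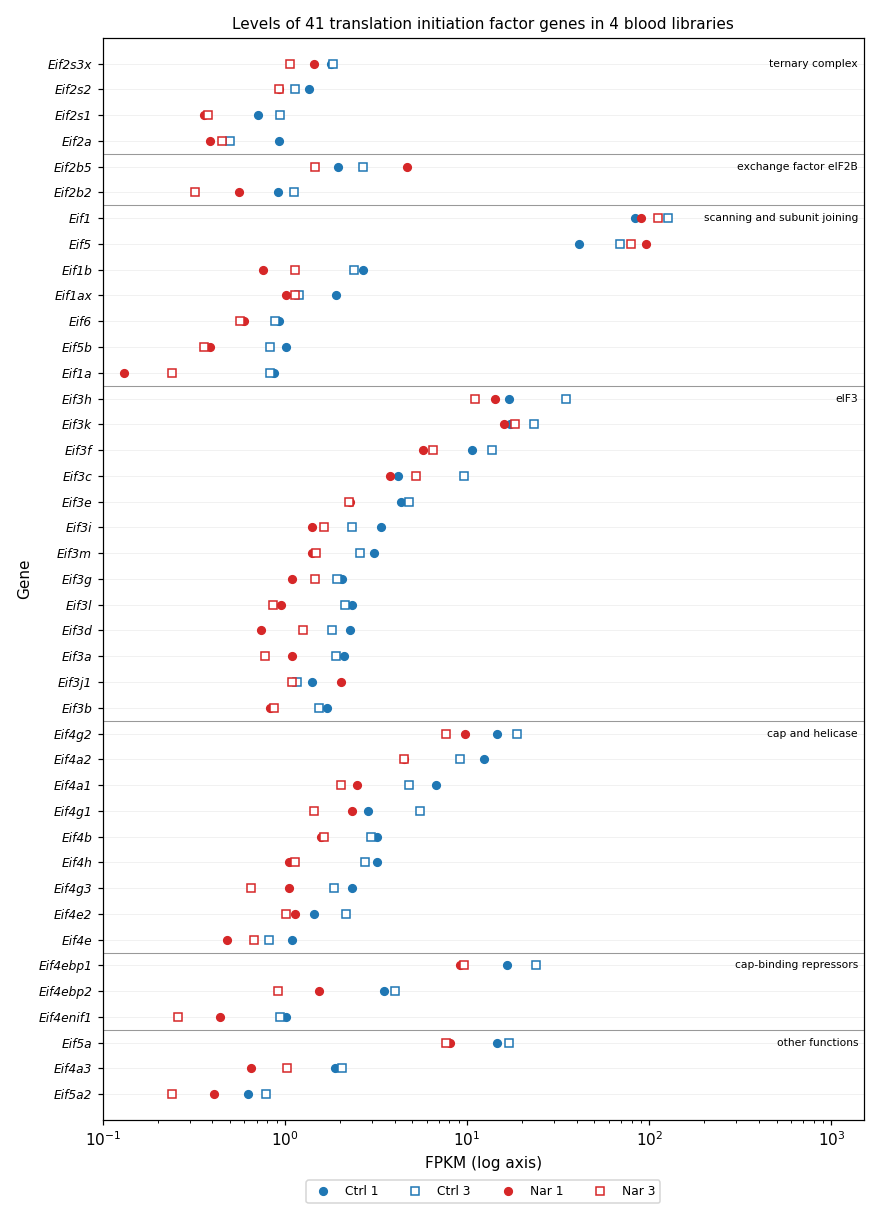
FPKM (x axis, log scale) of the 41 tested genes in Ctrl 1, Ctrl 3 (blue) and Nar 1, Nar 3 (red), grouped by role and sorted by mean within a role. Eif1 and Eif5 stand above 40 FPKM in every library, and in most other rows the red symbols lie left of the blue symbols.

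Eif1 and Eif5, a pair chosen after their values were seen, made up most of the initiation factor RNA in the Nar libraries. Their share of the summed FPKM of the 51 genes was 41.5% in Ctrl 1 and 47.6% in Ctrl 3, against 62.9% in Nar 1 and 65.0% in Nar 3, without overlap of the groups. The other 49 genes summed to 176 and 217 FPKM in Ctrl and to 110 and 103 FPKM in Nar. The sum over all 51 genes was 301 FPKM in Ctrl 1 and 413 in Ctrl 3, against 296 in Nar 1 and 293 in Nar 3, so Ctrl 3 was high and the remaining 3 were close. As a share of the FPKM outside haemoglobin, the 51 genes took 0.402% and 0.378% in Ctrl and 0.448% and 0.515% in Nar. In that share Eif1 and Eif5 gave 0.167% and 0.180% in Ctrl and 0.282% and 0.335% in Nar, while the other genes gave 0.235% and 0.198% in Ctrl and 0.166% and 0.180% in Nar. Over all tested genes the median log2 fold change was -0.66 for the 140 genes with a mean of 50 to 150 FPKM, the class that holds Eif1 and Eif5, -0.95 for those of 10 to 50 FPKM and -1.10 for those under 10 FPKM.

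**Figure D3:**
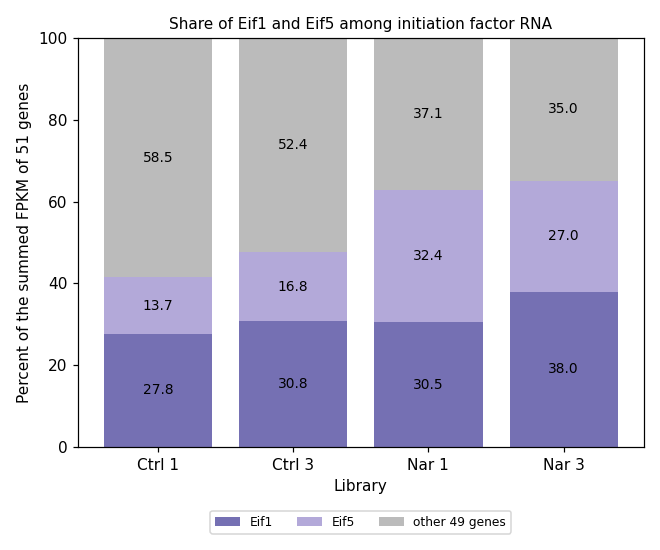
Share of Eif1, Eif5 and the other 49 genes in the summed FPKM of the 51 initiation factor genes (y axis, percent) in each library. Eif1 and Eif5 together take 41.5% and 47.6% in the Ctrl libraries and 62.9% and 65.0% in the Nar libraries.

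None of the 4 tested genes of the ternary complex was called in limma, where 39.6% of all tested genes were called lower. The eIF2 subunits carry the initiator tRNA, with Eif2s1 coding for the alpha subunit that stress kinases phosphorylate. Eif2s3x (gamma subunit) was at 1.78 and 1.84 FPKM in Ctrl and 1.45 and 1.07 in Nar, and Eif2s2 (beta subunit) at 1.35 and 1.14 FPKM in Ctrl and 0.93 in both Nar libraries. Their log2 fold changes of -0.50 and -0.38 did not pass in limma (adjusted p = 0.241 and 0.338). Eif2s1 was at 0.71 and 0.94 FPKM in Ctrl and 0.36 and 0.38 in Nar, and its log2 fold change of -0.97 missed the threshold too (limma adjusted p = 0.0693). Eif2a, a separate factor able to bind initiator tRNA, was at 0.93 and 0.50 FPKM in Ctrl and 0.39 and 0.45 in Nar. In all 4 tested genes both Nar libraries lay below both Ctrl libraries, as in 78.3% of all tested genes, and their median log2 fold change was -0.55, or 0.44 after median-of-ratios scaling. Eif2d was not tested, at 0.62 and 0.56 FPKM in Ctrl and 0.45 and 0.30 in Nar.

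Eif2s3y, the Y-linked near copy of Eif2s3x, was at 0.03 FPKM or less in every library. Ddx3y, another Y-linked gene, was listed at 0 throughout, Kdm5d stood at 0.09 to 0.22 FPKM and Uty at 0.03 to 0.10 FPKM, with no value for Xist. The study's methods call the mice of its water maze female and do not give the sex for the blood RNA. The sum of Eif2s3x and Eif2s3y, between which reads could be split, was 1.81 and 1.85 FPKM in Ctrl and 1.47 and 1.09 in Nar.

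The exchange factor eIF2B returns eIF2 to its GTP-bound form and is what phosphorylated eIF2 blocks. Eif2b5, its catalytic epsilon subunit, was at 1.96 FPKM in Ctrl 1 and 2.68 in Ctrl 3, against 4.65 in Nar 1 and 1.47 in Nar 3. Nar 1 was the highest library and Nar 3 the lowest, so the groups overlapped, and the log2 fold change of 0.19 (limma adjusted p = 0.764) rested on Nar 1, without which it was -0.61. Eif2b2 (beta subunit) was at 0.92 and 1.12 FPKM in Ctrl and 0.56 and 0.32 in Nar, with a log2 fold change of -1.08 just outside the threshold (limma adjusted p = 0.0527). Rescaling to TPM moved Eif2b2 inside it. The other subunits were too low to test: Eif2b1 was at 0.40 and 0.64 FPKM in Ctrl and 0.35 and 0.08 in Nar, Eif2b4 at 0.58 and 0.30 in Ctrl and 0.27 and 0.12 in Nar, and Eif2b3 at 0.15 or less in every library.

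Subunits of eIF3, the scaffold that links the small subunit to eIF4G, had unequal RNA levels. The sum of the 13 tested genes was 71.7 FPKM in Ctrl 1 and 102 in Ctrl 3, against 51.6 in Nar 1 and 53.0 in Nar 3. Eif3h, Eif3k and Eif3f gave 62.6% to 70.8% of it, and the highest subunit stood 12.2 to 30.0 times above the lowest. Eif3h was at 17.0 FPKM in Ctrl 1 and 35.1 in Ctrl 3, against 14.3 in Nar 1 and 11.1 in Nar 3. Ctrl 3 stood apart, as it did for Eif3c (4.15 and 9.60 FPKM in Ctrl, 3.77 and 5.26 in Nar) and for the platelet markers given above, whose part in it was not tested. The log2 fold change of Eif3h was -0.95 (limma adjusted p = 0.162), and it was -0.43 without Ctrl 3 and -1.47 without Ctrl 1. That of Eif3c, whose groups overlapped, was -0.50 (limma adjusted p = 0.421).

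Eif3k, a peripheral subunit, was at 17.2 FPKM in Ctrl 1 and 23.3 in Ctrl 3, against 16.0 in Nar 1 and 18.4 in Nar 3. Its groups overlapped, with a log2 fold change of -0.22 (limma adjusted p = 0.704), or 0.85 above the median of all tested genes. Eif3l codes for the subunit that pairs with Eif3k at the edge of the complex. It was at 2.33 and 2.13 FPKM in Ctrl and 0.95 and 0.86 in Nar, and was called lower (log2 fold change -1.21, standard error 0.35, limma adjusted p = 0.0293). The ratio of Eif3k to Eif3l, chosen after the values were seen, was 7.39 and 10.9 in Ctrl and 16.9 and 21.4 in Nar.

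Eif3a, the largest subunit, was at 2.10 and 1.90 FPKM in Ctrl and 1.09 and 0.78 in Nar and was called lower (log2 fold change -1.04, limma adjusted p = 0.0469). Under median-of-ratios scaling its log2 fold change was -0.0042. Eif3j1, the loosely bound subunit, was at 1.41 and 1.17 FPKM in Ctrl, 2.04 in Nar 1 and 1.09 in Nar 3. Its groups overlapped, and its log2 fold change of 0.20 (limma adjusted p = 0.66) turned to -0.22 without Nar 1. The near-identical Eif3j2 was listed at 0 in 3 libraries and at 0.22 FPKM in Nar 1, and reads could be split between the copies, whose sum was 1.41 and 1.17 FPKM in Ctrl and 2.26 and 1.09 in Nar.

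Eif3b, Eif3d, Eif3e, Eif3f, Eif3g, Eif3i and Eif3m did not pass, although both Nar libraries lay below both Ctrl libraries for each. Eif3d was at 2.29 and 1.81 FPKM in Ctrl and 0.74 and 1.25 in Nar, and the log2 fold changes of the other genes were -0.98 to -0.61. Eif3f, the highest of these, was at 10.7 and 13.8 FPKM in Ctrl and 5.73 and 6.50 in Nar (log2 fold change -0.98, limma adjusted p = 0.106). Eif3e was at 4.32 and 4.80 FPKM in Ctrl and 2.28 and 2.26 in Nar. Over the 13 subunits, 2 were called lower (39.6% of all tested genes) and 0 higher, with a median log2 fold change of -0.93, or 0.15 after median-of-ratios scaling.

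In the cap-binding and helicase group both Nar libraries lay below both Ctrl libraries for all 9 tested genes (78.3% of all tested genes), and 3 were called lower (39.6% of all tested genes). Their median log2 fold change was -1.07, or -0.0046 after median-of-ratios scaling. Eif4a1 and Eif4a2 code for closely similar forms of the helicase that unwinds the mRNA leader. Eif4a1 was at 6.78 FPKM in Ctrl 1 and 4.77 in Ctrl 3, against 2.50 in Nar 1 and 2.04 in Nar 3, and was called lower (log2 fold change -1.30, standard error 0.43, limma adjusted p = 0.0430). Eif4a2 was at 12.4 FPKM in Ctrl 1 and 9.19 in Ctrl 3, against 4.51 in Nar 1 and 4.50 in Nar 3, with a log2 fold change of -1.23 that did not pass (limma adjusted p = 0.0580). The ratio of Eif4a2 to Eif4a1 was 1.84 and 1.93 in Ctrl and 1.80 and 2.21 in Nar, so the groups overlapped and the pair kept nearly the same proportion in all 4 libraries.

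Eif4h, a cofactor of the helicase, was at 3.22 FPKM in Ctrl 1 and 2.76 in Ctrl 3, against 1.05 in Nar 1 and 1.14 in Nar 3 and was called lower (log2 fold change -1.37, standard error 0.36, limma adjusted p = 0.0248). The other cofactor, Eif4b, was at 3.19 and 2.98 FPKM in Ctrl and 1.58 and 1.63 in Nar (log2 fold change -0.90, limma adjusted p = 0.0754).

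Eif4g2, also called Dap5, is a relative of eIF4G without the part that binds eIF4E, and it had the highest level of the group. It stood at 14.5 FPKM in Ctrl 1 and 18.8 in Ctrl 3, against 9.80 in Nar 1 and 7.68 in Nar 3 (log2 fold change -0.92, limma adjusted p = 0.134). Of the scaffold genes themselves, Eif4g1 was at 2.86 and 5.51 FPKM in Ctrl and 2.34 and 1.44 in Nar (log2 fold change -1.07, limma adjusted p = 0.0867). That fold change was -0.61 without Ctrl 3 and -1.53 without Ctrl 1. Eif4g3 was at 2.34 and 1.85 FPKM in Ctrl and 1.05 and 0.65 in Nar, and was called lower (log2 fold change -1.23, limma adjusted p = 0.0348). The ratio of Eif4g1 to Eif4g3 was 1.22 and 2.98 in Ctrl and 2.23 and 2.22 in Nar, so the Ctrl libraries enclosed the Nar libraries.

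Eif4e, the cap-binding protein itself, had a low level, at 1.09 FPKM in Ctrl 1 and 0.82 in Ctrl 3, against 0.48 in Nar 1 and 0.68 in Nar 3 (log2 fold change -0.64, limma adjusted p = 0.163). Eif4e2, a cap-binding relative linked to repression, was at 1.44 and 2.17 FPKM in Ctrl and 1.13 and 1.02 in Nar (log2 fold change -0.67, limma adjusted p = 0.143). Its fold change was -0.39 without Ctrl 3 and -0.95 without Ctrl 1. Eif4e3 was too low to test, at 1.01 FPKM in Ctrl 1 and 0.52 in Ctrl 3, against 0.19 in Nar 1 and 0.14 in Nar 3. The ratio of Eif4e3 to Eif4e was 0.927 and 0.634 in Ctrl and 0.396 and 0.206 in Nar, without overlap, while that of Eif4e2 to Eif4e overlapped at 1.32 and 2.65 in Ctrl and 2.35 and 1.50 in Nar.

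Of the repressors that keep eIF4E from eIF4G, Eif4ebp1 was far more abundant than Eif4e itself. Eif4ebp1, which mTOR phosphorylates to release eIF4E, was at 16.6 FPKM in Ctrl 1 and 24.0 in Ctrl 3, against 9.14 in Nar 1 and 9.63 in Nar 3. The groups did not overlap, but the log2 fold change of -1.08 did not pass in limma (adjusted p = 0.0946) and lay close to that of the typical gene, at -0.010 from the median of all tested genes. The ratio of Eif4ebp1 to Eif4e, also chosen after the values were seen, was 15.3 and 29.3 in Ctrl and 19.0 and 14.2 in Nar, so the groups overlapped.

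Eif4ebp2, the second such repressor, was at 3.49 FPKM in Ctrl 1 and 4.03 in Ctrl 3, against 1.54 in Nar 1 and 0.92 in Nar 3. It was called lower (log2 fold change -1.57, standard error 0.41, limma adjusted p = 0.0236). The difference lay 0.50 below the median of all tested genes. The ratio of Eif4ebp1 to Eif4ebp2 was 4.77 and 5.96 in Ctrl and 5.94 and 10.5 in Nar, so the groups overlapped. Eif4enif1, which carries eIF4E into the nucleus and to RNA granules, was at 1.02 and 0.94 FPKM in Ctrl and 0.44 and 0.26 in Nar and was called lower (log2 fold change -1.29, limma adjusted p = 0.0348). Eif4ebp3 was at 0.18 FPKM in Ctrl 1 and listed at 0 elsewhere. Of the 3 tested genes 2 were called lower (39.6% of all tested genes), and their median log2 fold change was -1.29, or -0.36 after median-of-ratios scaling.

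**Figure D4:**
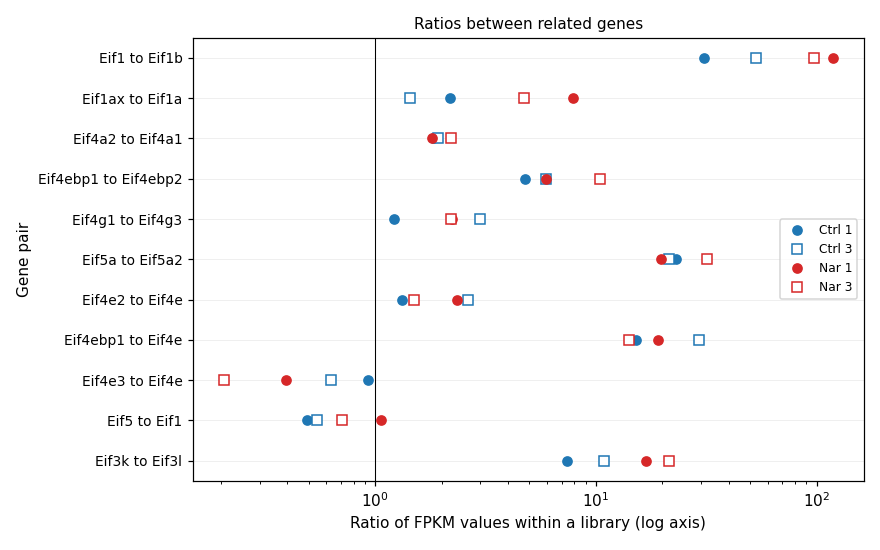
Ratio of the FPKM of related genes within a library (x axis, log scale) in Ctrl 1, Ctrl 3 (blue) and Nar 1, Nar 3 (red). The groups do not overlap for Eif1 to Eif1b, Eif1ax to Eif1a, Eif4e3 to Eif4e, Eif5 to Eif1 and Eif3k to Eif3l, and they overlap for the other 6 pairs. No share over gene pairs in general was computed to set beside this. In Nar, Eif1a (0.13 and 0.24 FPKM) and Eif4e3 (0.19 and 0.14 FPKM) were near the floor.

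The remaining ratio, Eif5 to Eif1, also chosen after the values were seen, was 0.494 and 0.545 in Ctrl and 1.06 and 0.710 in Nar. Only in Nar 1 was Eif5 above Eif1. An exact permutation test of 2 libraries against 2 cannot give a two-sided p below 0.33, its value for groups without overlap. That test could therefore pass no ratio, and the ratios are given as a description.

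The last 3 genes carry the name of initiation factors but act elsewhere. Eif4a3, a helicase of the exon junction complex, was at 1.88 and 2.05 FPKM in Ctrl and 0.65 and 1.03 in Nar and was called lower (log2 fold change -1.16, limma adjusted p = 0.0371). Eif5a codes for the hypusine-bearing factor of elongation and termination. It was at 14.6 FPKM in Ctrl 1 and 16.9 in Ctrl 3, against 8.08 in Nar 1 and 7.67 in Nar 3 (log2 fold change -0.99, limma adjusted p = 0.106). Its relative Eif5a2 was at 0.63 and 0.79 FPKM in Ctrl and 0.41 and 0.24 in Nar (log2 fold change -0.95, limma adjusted p = 0.0924), and the ratio of Eif5a to Eif5a2 overlapped, at 23.1 and 21.4 in Ctrl and 19.7 and 32.0 in Nar.

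The order of the 41 genes by level was similar in all libraries. Spearman's rho between a pair of libraries was 0.957 for the Ctrl libraries, 0.916 for the Nar libraries and 0.890 to 0.924 across the groups. These values are over genes, which share a library and its composition, and are given as a description. The 10 untested genes had means of 0 to 0.483 FPKM.

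Other genes of translation, 50 in 6 lists, were set beside them, with 30 tested, 7 called lower (39.6% of all tested genes were) and 0 higher, and a median log2 fold change of -0.61, against -1.07 for all tested genes. With libraries scaled by the median of ratios, none of the 30 was called in limma (0.356% of all tested genes lower, 0.112% higher). The median of the 30 was then 0.48, against -0.061 for all tested genes, 14 of the 25 genes that had been lower were higher, and the 7 called genes lay between -1.36 (Ppp1r15b) and -0.11 (Ddx3x). Of the eIF2 kinases, the heme-regulated Eif2ak1 was the highest, at 5.13 FPKM in Ctrl 1 and 12.8 in Ctrl 3, against 7.22 in Nar 1 and 4.75 in Nar 3. Its groups overlapped, with a log2 fold change of -0.46 (limma adjusted p = 0.481). Eif2ak3 (PERK), the kinase of the endoplasmic reticulum, was called lower, at 1.03 and 0.95 FPKM in Ctrl and 0.25 and 0.38 in Nar (log2 fold change -1.41, limma adjusted p = 0.0271). Eif2ak2, the kinase activated by double-stranded RNA, was too low to test, at 0.53 and 0.30 FPKM in Ctrl and 0.06 and 0.14 in Nar, as was Eif2ak4, at 0.18 FPKM or less. Under median-of-ratios scaling Eif2ak1 turned to 0.63.

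Of 7 tested genes of the eIF2 phosphatase and its stress response, 1 was called lower (39.6% of all tested genes). Ppp1r15b, which directs the phosphatase to eIF2 at rest, was at 3.66 FPKM in Ctrl 1 and 2.88 in Ctrl 3, against 0.66 in Nar 1 and 0.45 in Nar 3, with a log2 fold change of -2.37 (limma adjusted p = 0.00553). Its stress-induced counterpart Ppp1r15a was at 6.69 and 10.9 FPKM in Ctrl and 8.21 and 9.20 in Nar, with overlapping groups and a log2 fold change of 0.027. Atf4, the transcription factor whose mRNA is translated when eIF2 is phosphorylated, was at 14.1 and 17.4 FPKM in Ctrl and 8.37 and 13.0 in Nar (log2 fold change -0.58, limma adjusted p = 0.323). Atf5 was at 4.27 and 11.7 FPKM in Ctrl and 4.34 and 7.62 in Nar. Asns, the asparagine synthetase gene, went the other way, at 1.03 and 1.16 FPKM in Ctrl and 1.38 and 3.04 in Nar. Both its Nar libraries lay above both Ctrl libraries, and the log2 fold change of 0.85 did not pass in limma (adjusted p = 0.121). Under median-of-ratios scaling Atf4 turned to 0.52 and Atf5 to 0.80.

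Of 7 tested genes of mTOR and cap control, 2 were called lower (39.6% of all tested genes). Mknk1, a kinase of eIF4E, was at 3.39 and 4.44 FPKM in Ctrl and 1.08 and 1.11 in Nar (log2 fold change -1.74, limma adjusted p = 0.0160), and Rps6kb2 had a log2 fold change of -1.32 (limma adjusted p = 0.0351). Mknk2, the other eIF4E kinase and the highest of this list, was at 8.83 and 6.74 FPKM in Ctrl and 5.32 and 4.60 in Nar (log2 fold change -0.63, limma adjusted p = 0.246). Pdcd4, an inhibitor of eIF4A, was at 2.29 and 1.90 FPKM in Ctrl and 1.31 and 2.06 in Nar. The kinase gene Mtor itself was at 0.23 FPKM or less. Under median-of-ratios scaling Mknk2 turned to 0.46 and Pdcd4 to 0.73, while Mknk1 was at -0.68.

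None of the 3 tested poly(A)-binding genes was called, where 39.6% of all tested genes were called lower. Pabpc1, the main cytoplasmic poly(A)-binding protein, which joins the mRNA tail to eIF4G, was at 513 FPKM in Ctrl 1 and 752 in Ctrl 3, against 1978 in Nar 1 and 586 in Nar 3. Nar 1 stood apart while Nar 3 lay between the Ctrl libraries, and the log2 fold change of 0.79 did not pass in limma (adjusted p = 0.239). Paip2 was at 28.6 and 37.9 FPKM in Ctrl and 29.4 and 17.5 in Nar, and Pabpc4 at 6.86 and 20.1 in Ctrl and 17.3 and 14.7 in Nar, both with overlapping groups. Under median-of-ratios scaling Paip2 turned from -0.54 to 0.57.

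Of 5 tested genes of other initiation and recycling steps, 2 were called lower (39.6% of all tested genes). The helicase gene Ddx3x was at 4.46 and 4.15 FPKM in Ctrl and 1.94 and 1.75 in Nar (log2 fold change -1.18, limma adjusted p = 0.0435). Abcf1 was at 1.36 and 0.94 FPKM in Ctrl and 0.59 and 0.35 in Nar (log2 fold change -1.14, limma adjusted p = 0.0462). Denr was at 1.27 and 0.76 FPKM in Ctrl and 0.46 and 0.42 in Nar and did not pass. Median-of-ratios scaling left Ddx3x at -0.11, Abcf1 at -0.18 and Denr at -0.048.

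Elongation and release genes gave 1 call in 6, where 39.6% of all tested genes were called lower. Etf1, the release factor that reads stop codons, was at 1.30 and 1.24 FPKM in Ctrl and 0.39 and 0.40 in Nar (log2 fold change -1.47, limma adjusted p = 0.0196). Eef1a1, which brings tRNA to the elongating ribosome, was at 179 FPKM in Ctrl 1 and 248 in Ctrl 3, against 122 in Nar 1 and 137 in Nar 3 (log2 fold change -0.71, limma adjusted p = 0.210). Eef2 was at 48.6 and 64.9 FPKM in Ctrl and 35.4 and 46.5 in Nar, and Eef1b2 at 20.0 and 19.8 in Ctrl and 13.0 and 15.0 in Nar, and neither passed in limma (adjusted p = 0.429 and 0.375). Eef1d, a subunit of the exchange factor of elongation, was the gene of this list with both Nar libraries above both Ctrl libraries, at 12.7 and 12.1 FPKM in Ctrl and 17.0 and 12.9 in Nar (log2 fold change 0.25, limma adjusted p = 0.653). Under median-of-ratios scaling Eef1a1 turned to 0.40, Eef2 to 0.64 and Eef1b2 to 0.60.

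**Figure D5:**
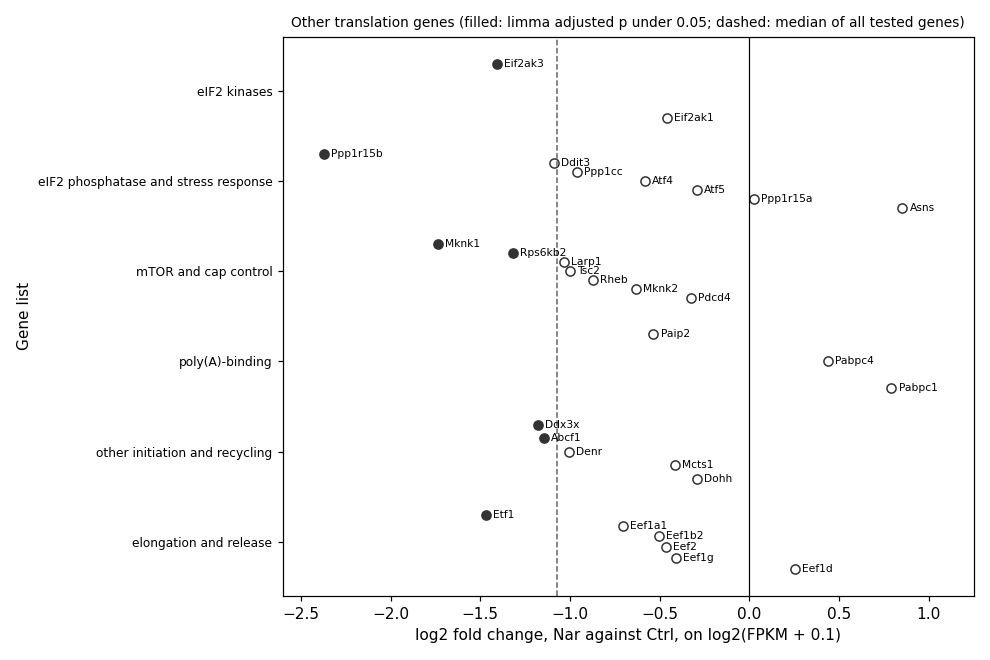
Log2 fold change (Nar against Ctrl, x axis, on log2(FPKM + 0.1)) of 30 tested genes in 6 other lists of translation genes, with a dashed line at the median of all tested genes. The 7 filled points were called lower by limma and lie between -2.37 and -1.14, while Pabpc1 (0.79) and Asns (0.85) lie highest and were not called.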

How the data were processed

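The values deposited by the authors were FPKM, given to 2 decimals. The study's methods name bowtie-2 for the alignment to gene sequences, while the submitters' processing notes name TopHat2, Cufflinks and GRCm38, without saying what each did. FPKM are not counts: the depth behind them is unknown and no counting error can be given, and the DEGseq test of the study, which needs read numbers, was replaced. Of 23136 rows, 5313 were blank in all 4 libraries and were left out. Each column was matched to its library by name. Groups came from the labels.

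Genes with a mean of at least 0.5 FPKM (5339) were compared on log2(FPKM + 0.1) with limma 3.58.1 in R 4.3.3 (eBayes with a trend on the mean, two-sided, Benjamini-Hochberg adjustment over all genes tested). The steps were tested on simulated data. Members and lists were chosen with earlier results of these data known. Values in every library were given for the 2 highest genes of each role, the 5 highest and 5 lowest fold changes, members called higher and related pairs, and, from the other lists, for the 3 highest genes and those called higher. Further genes named with values were chosen after their values were seen. Alternatives were pseudocounts of 1 and 0.01, no filter, a mean of at least 5 FPKM, TPM, removal of haemoglobin genes, median-of-ratios scaling, no trend in limma, a replicate block and each library left out. Promoters (RefSeq, GRCm38.p6) were matched by gene ID, and members on chromosome 18 were left out of the members' windows. Python 3.11.15 was used with pandas 2.3.3, and plots were drawn with matplotlib 3.10.9.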

Additional observations from a re-analysis of the deposited data

How the results depend on the processing

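The count of 11 initiation factor genes called lower (39.6% of all tested genes) became 10 with a pseudocount of 1 (34.2%), 11 with 0.01 (38.4%), 12 with TPM (42.2%) and 9 without the trend (33.5%). It was 0 after haemoglobin removal (4.54%), 0 after median-of-ratios scaling (0.356%) and 0 of 10 at a mean of at least 5 FPKM (10.7%). That last filter left out all 11 genes before the test, so it cannot show whether their calls hold. Without the filter, 25 of the 50 genes above 0 were lower at an unadjusted p under 0.05 in limma (29.6% of all genes). The count was then 0, and 0 of 16382 genes were called by limma. It was 0 to 0 when a library was left out (Ctrl 1, Ctrl 3, Nar 1 or Nar 3), where 0%, 0%, 4.76% and 3.99% of all tested genes were called lower. The count called higher was 0 throughout. The groups share replicate numbers, but nothing in the labels says that a number marks a shared mouse, batch or day. The deviations of same-numbered libraries had a weak correlation of -0.153 across genes, which does not settle the matter, and the numbers were not treated as pairing. With the replicate block 8 were called (33.8% of all tested genes lower), without Eif3a, Eif4a1 and Eif5b, and with the pairing crossed, chosen after seeing the data, 25 were called (60.1%), including all 11.

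The median log2 fold change of -0.95 was -0.60 with a pseudocount of 1, -0.43 after haemoglobin removal, 0.12 after median-of-ratios scaling and -1.01 to -0.88 with a library left out. Its difference of 0.12 from all genes was -0.35 without the filter and 0.045 to 0.33 with a library left out. Haemoglobin removal turned eIF2B (median 0.029), Eif3c (0.059), Eif1ax (0.081), Eif2s2 (0.14), Eif2s3x (0.023), Eif1 (0.52) and Eif3k (0.34) upward. At a mean of at least 5 FPKM the scanning median was 0.33, over Eif1 and Eif5. Median-of-ratios scaling turned the medians of the ternary complex (0.44), eIF2B (0.56), scanning (0.42) and eIF3 (0.15), and the values of Eif1 (1.07), Eif3k (0.88), Eif2s2 (0.63), Eif3c (0.59), Eif1ax (0.58), Eif2s3x (0.54), Eif3g (0.43), Eif6 (0.42), Eif4e2 (0.36), Eif4e (0.34), Eif2a (0.34), Eif3i (0.22), Eif4g2 (0.18), Eif3b (0.16), Eif4b (0.16), Eif3h (0.15), Eif3m (0.13), Eif3f (0.12), Eif5a (0.11), Eif3e (0.10), Eif3d (0.031) and Eif4ebp1 (0.019). With a library left out, Eif2b5 ranged from -0.61 (without Nar 1) to 0.99, turning also without Ctrl 1 (-0.026). Eif1 ranged from -0.34 to 0.26 (without Ctrl 3), turning also without Nar 1 (0.11). Eif3c ranged from -1.09 to 0.10 (without Ctrl 3), Eif3j1 from -0.22 (without Nar 1) to 0.63 and the eIF2B median from -1.01 to 0.12 (without Nar 3). The scalings differ in the level taken as unchanged. The depth is unknown, and with 2 libraries a group the difference between the initiation factor genes and other genes was not tested.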
